A study of Mus musculus with 5 samples.

Results

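The ABC (ATP-binding cassette) efflux transporters of brain endothelium are 10 genes, *Abcb1a*, *Abcb1b*, *Abcg2*, *Abcc1*, *Abcc4*, *Abcc5*, *Abcc6*, *Abca1*, *Abca2* and *Abcg1*, taken by symbol from the 34615 gene symbols in the data. All 10 were found, with 1 identifier each, and all 10 had a mean of at least 1 FPKM, a unit that scales sequenced fragments by exon length and library size, which was the level required for testing. RNA was sequenced from microvascular fragments isolated from the brains of 3 WT and 2 *Ins2*-AKITA mice, with 1 library per mouse. All 5 mice were males of C57BL6 background aged 26 to 38 weeks. The *Ins2*-AKITA mice were heterozygous for a point mutation of the insulin 2 gene that kills pancreatic beta cells, so that these animals make little insulin and stay hyperglycemic, and the WT mice were littermates. The comparison asks whether the RNA of the efflux transporters differed between brain vessels of hyperglycemic and normoglycemic mice.

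ABC transporters use ATP to move substrates across a membrane. At the blood-brain barrier, P-glycoprotein (encoded by *Abcb1a* and *Abcb1b* in the mouse) and the breast cancer resistance protein (encoded by *Abcg2*) sit in the membrane of endothelial cells that faces the blood and pump many drugs back into it. The *Abcc* genes encode multidrug resistance-associated proteins (MRPs), which carry mostly organic anions and conjugates, while *Abca1*, *Abca2* and *Abcg1* handle cholesterol and other lipids. Many of these genes are also active outside the endothelium, in glia and neurons, and bulk RNA of vessel fragments does not separate the sources. Fewer cells of a type and less RNA per cell cannot be told apart in such data.

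The fragments were not pure endothelium. The 12 endothelial markers, among them *Pecam1*, *Cdh5* and *Cldn5*, were above 0 in every mouse, with a summed level of 514 to 874 FPKM in WT and 446 to 561 FPKM in *Ins2*-AKITA mice. Markers of astrocytes were also abundant (8 genes, 1746 to 3266 FPKM in sum over the 5 mice), as were those of neurons (8 genes, 770 to 934 FPKM) and oligodendrocytes (8 genes, 904 to 1178 FPKM). Single genes led some of these sums, with *Slc1a2* at 1013 to 2110 FPKM for astrocytes and *Mobp* at 655 to 878 FPKM for oligodendrocytes. The sums therefore do not rank the cell types by amount. The libraries held between 1127441 and 2850961 fragments, as estimated from the steps between low FPKM values, and WT replicate 3 was the deepest. Small and ribosomal RNA took 40.6% to 96.7% of the summed FPKM of a mouse. FPKM divides by length and so gives short genes high values, and this is not a share of fragments. The summed FPKM of protein-coding genes was similar in all mice, at 363027 to 391234.

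The 2 P-glycoprotein genes lie next to each other on chromosome 5 (NCBIM37) and are close relatives, which bears on how well their reads can be told apart. *Abcb1a* (ENSMUSG00000040584) spans chr5:8660077-8748575 and *Abcb1b* (ENSMUSG00000028970) chr5:8798147-8866314, both on the plus strand. Their coding sequences are each 3831 nt long and identical at 3363 of 3822 aligned positions (88.0%). Of the stretches of 50 nt in the longest transcript, 17.0% (840 of 4948) for *Abcb1a* and 18.1% (779 of 4295) for *Abcb1b* occur letter for letter in another protein-coding gene, mostly in the other gene of the pair. None of the stretches of the other 8 transporters do. The longest run shared by the pair is 338 nt of coding sequence in exons 13 and 14, at chr5:8702387-8702572 and chr5:8702793-8702944 in *Abcb1a* and at chr5:8824707-8824892 and chr5:8825113-8825264 in *Abcb1b*. The 120 nt around its start are printed to show how the genes pass from distinguishable to identical sequence. Lower case marks the part before the shared run and capitals the first part of the run (exon 12 at chr5:8702237-8702278 and exon 13 at chr5:8702369-8702446 for *Abcb1a*, exon 12 at chr5:8824557-8824598 and exon 13 at chr5:8824689-8824766 for *Abcb1b*).
Abcb1a: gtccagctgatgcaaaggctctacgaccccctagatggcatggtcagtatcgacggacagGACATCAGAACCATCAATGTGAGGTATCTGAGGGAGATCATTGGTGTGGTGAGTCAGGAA
Abcb1b: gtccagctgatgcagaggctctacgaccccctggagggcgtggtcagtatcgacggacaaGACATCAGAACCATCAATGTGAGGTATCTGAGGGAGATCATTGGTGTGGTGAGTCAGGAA

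The shared run also covers the first ABC signature motif, the short stretch by which the ATP-binding domains of this family are recognised. The 105 nt around it are the same in both genes, with the codons of the motif in capitals (chr5:8702564-8702572 and chr5:8702793-8702888 in *Abcb1a*, chr5:8824884-8824892 and chr5:8825113-8825208 in *Abcb1b*). A read from this stretch cannot be assigned to either gene by its sequence, and how such reads were shared out in the deposited values is not given in the sources used here.
Abcb1a and Abcb1b: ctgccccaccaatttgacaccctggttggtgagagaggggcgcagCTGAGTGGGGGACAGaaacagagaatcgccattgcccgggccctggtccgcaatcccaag

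FPKM is a level per length and allows genes to be ranked. The order of the WT means was divided into 3 tiers at the steps between neighbours that were present in every mouse. *Abcc5*, *Abca2*, *Abcb1a* and *Abcg2* formed the upper tier, with WT means from 59.5 down to 35.6 FPKM. *Abcc4*, *Abca1* and *Abcg1* followed, with WT means from 16.0 down to 14.3 FPKM, and *Abcc1*, *Abcc6* and *Abcb1b* formed the lower tier, with WT means from 5.72 down to 1.45 FPKM. The step from *Abcg2* to *Abcc4* was 2.23-fold in the WT means and the step from *Abcg1* to *Abcc1* was 2.49-fold, and each was present in 5 of 5 mice. Within the tiers, neighbours kept their order in 3 or 4 of 5 mice, so that none of these orders was present in every mouse. *Abcb1a* was above *Abcg2* in every WT mouse, and *Ins2*-AKITA replicate 2 was the mouse that broke this order. A step inside the lower tier, from *Abcc6* to *Abcb1b*, was 2.43-fold in the WT means but was present in 3 of 5 mice. The most abundant transporter was *Abcc5* in WT replicate 1 and *Ins2*-AKITA replicate 1, *Abcb1a* in WT replicates 2 and 3, and *Abcg2* in *Ins2*-AKITA replicate 2.

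**Figure D1:**
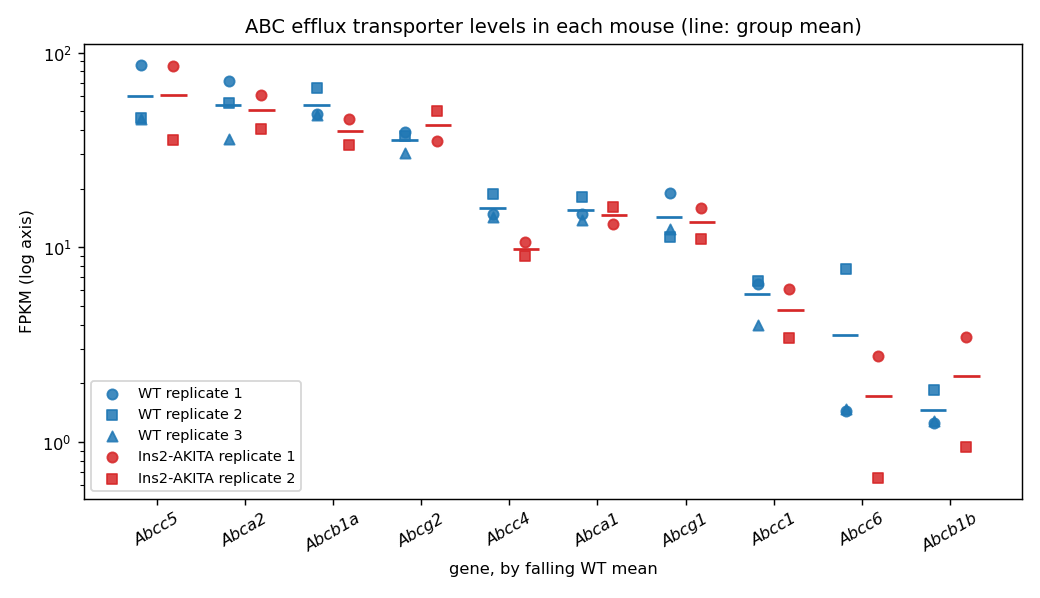
Level of each ABC efflux transporter in FPKM (log axis) in the 3 WT mice (blue) and 2 *Ins2*-AKITA mice (red), with 1 point per mouse and a line at the group mean, ordered by the WT mean. *Abcc4* and *Abcb1a* are the genes in which both *Ins2*-AKITA points lie below all WT points, and *Abcc6* and *Abcb1b* are spread over the widest range.

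Of the drug efflux pumps, *Abcb1a*, the main P-glycoprotein gene of mouse brain capillaries, was measured at 48.2, 65.5 and 47.6 FPKM in WT replicates 1 to 3 and at 45.5 and 33.6 FPKM in *Ins2*-AKITA replicates 1 and 2. Both *Ins2*-AKITA mice were below all WT mice, but *Ins2*-AKITA replicate 1 was close to the lowest WT mouse. The means were 53.8 ± 10.2 FPKM (SD, n = 3) in WT and 39.5 ± 8.41 FPKM (SD, n = 2) in *Ins2*-AKITA mice, 1.36-fold higher in WT. On the log2(FPKM + 1) scale the difference was -0.43 (SE 0.24, 95% interval -1.01 to 0.14), and it did not pass the test (limma, adjusted p = 0.90, exact permutation p = 0.2).

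*Abcg2* (ENSMUSG00000029802, chr6:58534517-58642863, plus strand), whose protein shares many drug substrates with P-glycoprotein, was measured at 39.3, 37.1 and 30.4 FPKM in WT mice and at 35.0 and 50.2 FPKM in *Ins2*-AKITA mice. The groups overlapped, with *Ins2*-AKITA replicate 2 the highest of the 5. The means were 35.6 ± 4.63 FPKM (SD, n = 3) and 42.6 ± 10.8 FPKM (SD, n = 2), and the log2 difference was 0.24 (SE 0.24, 95% interval -0.33 to 0.81; limma, adjusted p = 0.90). Without *Ins2*-AKITA replicate 2 it was -0.015. *Abcb1a* exceeded *Abcg2* by 1.23, 1.77 and 1.57 times in WT mice and by 1.30 times in *Ins2*-AKITA replicate 1, whereas in *Ins2*-AKITA replicate 2 the ratio was 0.668.

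*Abcb1b*, the other P-glycoprotein gene, was the least abundant of the 10 in WT mice. Its level was 1.25, 1.84 and 1.28 FPKM in WT mice and 3.45 and 0.944 FPKM in *Ins2*-AKITA mice. These values rest on 6, 10 and 15 fragments in WT replicates 1 to 3 and on 16 and 5 fragments in *Ins2*-AKITA replicates 1 and 2. *Ins2*-AKITA replicate 1 was thus the highest and *Ins2*-AKITA replicate 2 the lowest of the 5 mice. The 95% Poisson interval of *Ins2*-AKITA replicate 1 was 1.97 to 5.60 FPKM and that of WT replicate 2 was 0.882 to 3.38 FPKM, where both cover counting error only. The log2 difference was 0.27 (SE 0.53, 95% interval -1.01 to 1.55; limma, adjusted p = 0.95) and became -0.33 without *Ins2*-AKITA replicate 1. The start of *Abcb1b* (chr5:8798147-8798523) overlaps *Gm5106*, a long noncoding RNA on the opposite strand, which was at 0.683 and 0.317 FPKM in WT replicates 2 and 3 and at 0 in the other mice.

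*Abcb1a* therefore made up nearly all P-glycoprotein RNA in these fragments. Its share of the summed FPKM of the pair was 97.5%, 97.3% and 97.4% in WT replicates 1 to 3, against 93.0% and 97.3% in *Ins2*-AKITA replicates 1 and 2. The group means differed by -2.27 percentage points (exact two-sided permutation p = 0.1, the smallest that 3 against 2 mice can give). That difference came from *Ins2*-AKITA replicate 1, and without this mouse it was -0.11 percentage points. The summed level of the pair was 55.2 ± 10.5 FPKM (SD, n = 3) in WT and 41.7 ± 10.2 FPKM (SD, n = 2) in *Ins2*-AKITA mice. The exact permutation p was 0.5 in FPKM and 0.2 on the log2 scale, and this log2 comparison was chosen after seeing the data.

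**Figure D2:**
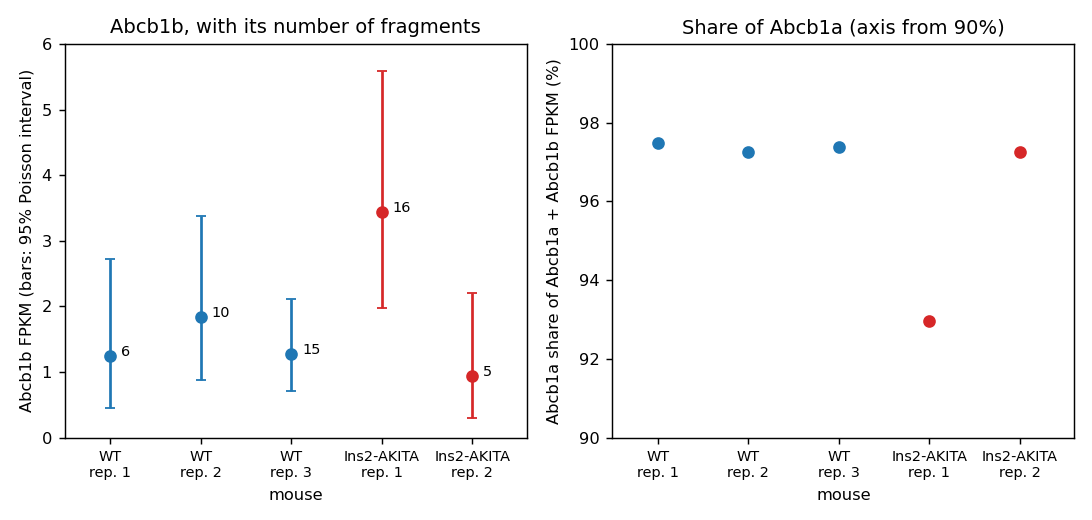
Left, *Abcb1b* in FPKM in each mouse with its 95% Poisson interval and its number of fragments beside the point. Right, the share of *Abcb1a* in the summed FPKM of *Abcb1a* and *Abcb1b* in percent, on an axis that starts at 90%. *Ins2*-AKITA replicate 1 has the highest *Abcb1b* level (3.45 FPKM, 16 fragments) and the lowest *Abcb1a* share (93.0%), and the other 4 mice lie between 97.3% and 97.5%.

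Among the MRP genes, *Abcc4* (ENSMUSG00000032849, chr14:118881914-119105441, minus strand) had the lowest p of the 10 transporters. Its protein, MRP4, exports cyclic nucleotides, prostaglandins and several drugs and is found in brain capillary endothelium. *Abcc4* was measured at 14.8, 18.8 and 14.4 FPKM in WT mice and at 10.6 and 9.04 FPKM in *Ins2*-AKITA mice. Both *Ins2*-AKITA mice were below all WT mice, and these values rest on at most 95, 137 and 225 fragments in WT and at most 66 and 64 fragments in *Ins2*-AKITA mice. The means were 16.0 ± 2.46 FPKM (SD, n = 3) and 9.84 ± 1.13 FPKM (SD, n = 2), a 1.62-fold lower level in *Ins2*-AKITA mice. The log2 difference was -0.64 (SE 0.24, 95% interval -1.22 to -0.07), with an unadjusted limma p of 0.034 that did not pass after adjustment over 16286 genes (adjusted p = 0.90, exact permutation p = 0.1, the smallest possible). The difference kept its sign without each mouse in turn (-0.75 to -0.53).

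*Abcc1* (ENSMUSG00000023088, chr16:14361651-14475830, plus strand) encodes MRP1, an exporter of glutathione conjugates and leukotriene C4. It was measured at 6.51, 6.69 and 3.97 FPKM in WT mice and at 6.13 and 3.43 FPKM in *Ins2*-AKITA mice, and the groups overlapped. Its log2 difference was -0.23 (SE 0.37, 95% interval -1.13 to 0.67; limma, adjusted p = 0.94).

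*Abcc5* (ENSMUSG00000022822, chr16:20331376-20426467, minus strand) encodes MRP5, an exporter of cyclic nucleotides and organic anions with a wide tissue distribution. It was at 86.6, 46.1 and 45.6 FPKM in WT mice and at 85.2 and 35.4 FPKM in *Ins2*-AKITA mice. Replicate 1 of each genotype was high and the other 3 mice were low, so that the spread within each genotype was far larger than the difference of the means (59.5 ± 23.5 FPKM, SD, n = 3, and 60.3 ± 35.2 FPKM, SD, n = 2). The log2 difference was -0.04 (SE 0.45, 95% interval -1.13 to 1.04; limma, adjusted p = 0.99).

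*Abcc6* (ENSMUSG00000030834, chr7:53231750-53285672, minus strand) encodes MRP6, which mediates ATP release from liver cells and is lost in pseudoxanthoma elasticum. It was near the lower end, with 1.44, 7.70 and 1.48 FPKM in WT mice and 2.78 and 0.655 FPKM in *Ins2*-AKITA mice, on at most 8, 48 and 20 and at most 15 and 4 fragments. WT replicate 2 stood above all other mice, and the groups overlapped. The log2 difference was -0.58 (SE 0.73, 95% interval -2.35 to 1.18; limma, adjusted p = 0.92), and without WT replicate 2 it was 0.024.

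The 3 lipid transporters had overlapping levels in both genotypes. *Abca1* (ENSMUSG00000015243, chr4:53043659-53172767, minus strand) loads cholesterol and phospholipid onto apolipoproteins. It was at 14.8, 18.2 and 13.8 FPKM in WT mice and at 13.1 and 16.2 FPKM in *Ins2*-AKITA mice, with a log2 difference of -0.08 (SE 0.24, 95% interval -0.65 to 0.49; limma, adjusted p = 0.97). *Abcg1* (ENSMUSG00000024030, chr17:31194643-31252722, plus strand), which promotes cholesterol efflux to lipoprotein particles, was at 19.1, 11.2 and 12.5 FPKM in WT mice and at 15.8 and 11.0 FPKM in *Ins2*-AKITA mice. The log2 difference of *Abcg1* was -0.07 (SE 0.31, 95% interval -0.81 to 0.68; limma, adjusted p = 0.98).

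*Abca2* (ENSMUSG00000026944, chr2:25284223-25304060, plus strand) encodes a lipid transporter of endosomes and lysosomes that is abundant in oligodendrocytes. It was at 71.0, 55.3 and 35.8 FPKM in WT mice and at 60.3 and 40.5 FPKM in *Ins2*-AKITA mice. The *Ins2*-AKITA values lay within the WT range, and the log2 difference was -0.07 (SE 0.33, 95% interval -0.88 to 0.74; limma, adjusted p = 0.98).

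None of the 10 transporters passed an adjusted p of 0.05 in limma, where 0.0246% of all tested genes did (4 of 16286). At an unadjusted p of 0.05, 1 of 10 passed (*Abcc4*, lower in *Ins2*-AKITA mice), against 2.93% of all tested genes in that direction. In 2 of 10 (*Abcb1a* and *Abcc4*) both *Ins2*-AKITA mice were below all WT mice, against 10.3% of all tested genes, and in 0 of 10 both were above, against 9.24%. The mean log2 level was lower in *Ins2*-AKITA mice for 8 of 10 transporters, against 53.5% of all tested genes. These directions depend on the scale. In TPM, where the median difference of all tested genes was 1.07, the same 8 transporters had differences above 0, among them *Abcc4* with 0.73 and *Abcb1a* with 1.15. Against that median *Abcc4* was at -0.33 and *Abcb1a* at 0.08. The 8 kept their direction when scaled by the protein-coding sum, by median ratios or by quantiles. On the FPKM scale the median log2 difference was -0.08 over the 10 transporters and -0.03 over all tested genes. The intervals were wide: those of *Abcb1a*, *Abcg2*, *Abcc4* and *Abca1*, the narrowest, ran over more than 1 log2 unit.

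**Figure D3:**
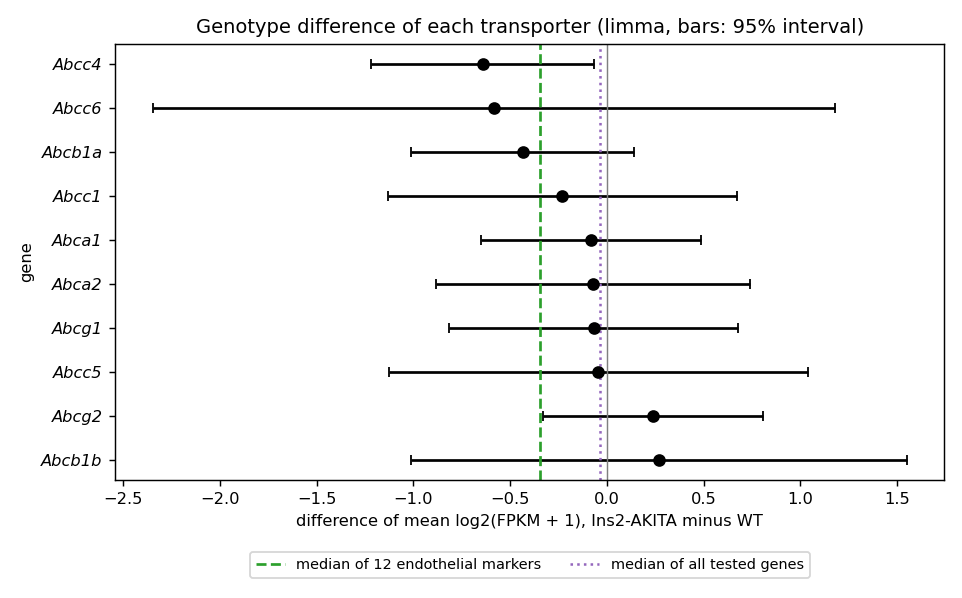
Difference of the mean log2(FPKM + 1), *Ins2*-AKITA minus WT, for each transporter, with its 95% limma interval. The dashed line is the median difference of the 12 endothelial markers (-0.35) and the dotted line that of all tested genes (-0.03). The interval of *Abcc4* (-1.22 to -0.07) does not reach 0 and covers the dashed line, and the other 9 intervals include 0.

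Cell type markers in the same libraries are given beside these values. Of the 12 endothelial markers, 10 had a lower mean log2 level in *Ins2*-AKITA mice (53.5% of all tested genes did), with a median difference of -0.35 (-0.03 over all tested genes), although the summed levels of the genotypes overlapped. The summed mural cell markers (10 genes, pericytes and smooth muscle) were 428 to 503 FPKM in WT and 303 to 384 FPKM in *Ins2*-AKITA mice and did not overlap. Of these markers, 8 of 10 were lower, with a median difference of -0.46. Both *Ins2*-AKITA mice were below all WT mice in 4 of 10, against 10.3% of all tested genes. These were the smooth muscle genes *Acta2*, *Myh11* and *Tagln* and the pericyte gene *Vtn*. The mural markers *Kcnj8* (-0.79), *Des* (-0.44), *Cspg4* (-0.36) and *Notch3* (-0.25) were also lower, but their groups overlapped. The pericyte markers *Rgs5* (0.01) and *Anpep* (0.18, at a low level of 1.49 to 2.68 FPKM) were not lower. The summed astrocyte markers also did not overlap, in the other direction, at 1746 to 2517 FPKM in WT and 2867 to 3266 FPKM in *Ins2*-AKITA mice. Of these markers, 7 of 8 were higher, with a median difference of 0.49. *Slc1a2* made up the largest part of this sum, with 1013 to 1507 FPKM in WT and 1897 and 2110 FPKM in *Ins2*-AKITA mice. Both *Ins2*-AKITA mice were above all WT mice in 3 of 8 markers, against 9.24% of all tested genes. Erythroid markers (5 genes) were 35.1 to 67.7 FPKM in WT and 25.1 to 32.4 FPKM in *Ins2*-AKITA mice in sum. Taken singly, 1 of these 5 genes had both *Ins2*-AKITA mice below all WT mice. The sums of the oligodendrocyte, neuron, microglia (8 genes, 154 to 213 FPKM over all mice), perivascular fibroblast (6 genes, 30.7 to 38.2 FPKM) and choroid plexus markers (6 genes, 702 to 2074 FPKM) overlapped between the genotypes. *Lum* of the fibroblast list and *Hbb-b2* of the erythroid list were at 0 in at least 1 mouse. No marker passed an adjusted p of 0.05 in limma (smallest adjusted p = 0.80, for the astrocyte marker *Aldh1l1*). An unadjusted p under 0.05 was found for 1 endothelial, 3 mural, 1 astrocyte and 1 erythroid marker, all lower in *Ins2*-AKITA mice except the astrocyte marker, against 2.93% of all tested genes in the lower and 1.53% in the higher direction.

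**Figure D4:**
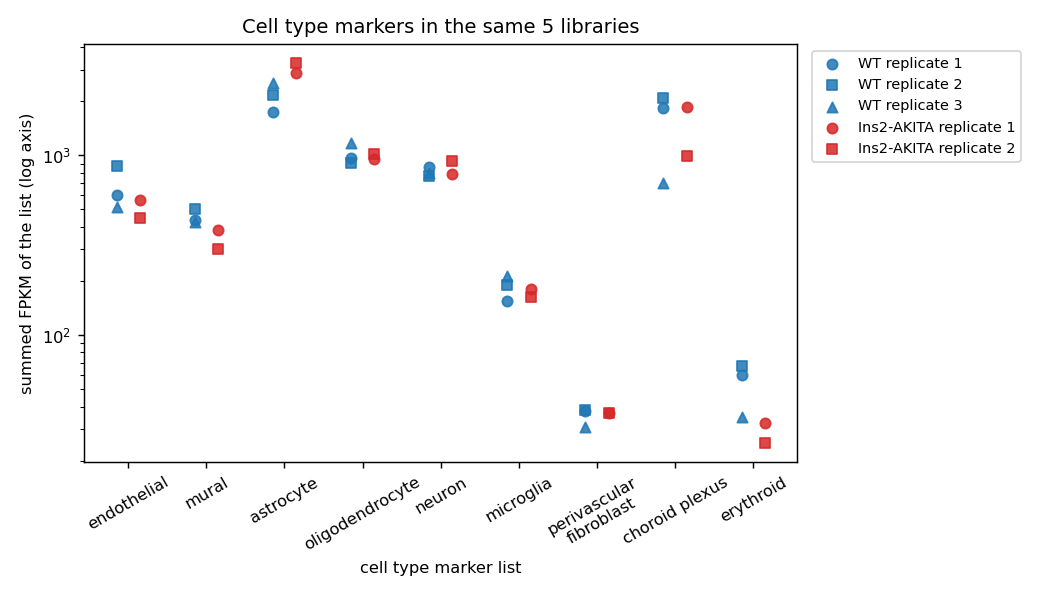
Summed FPKM (log axis) of each cell type marker list in the 3 WT mice (blue) and 2 *Ins2*-AKITA mice (red), 1 point per mouse. The *Ins2*-AKITA points lie below all WT points for the mural and erythroid lists and above them for the astrocyte list, and the other 6 lists overlap. Of all tested genes, taken singly, 10.3% lie below and 9.24% above in this way. The sums are led by their most abundant genes, such as *Slc1a2* in the astrocyte list.

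Relative to the mean of the endothelial markers of the same mouse, the difference of *Abcc4* was -0.31 (SE 0.41, 95% interval -1.19 to 0.56) and that of *Abcb1a* was -0.10 (SE 0.41, 95% interval -0.97 to 0.76), each closer to 0 than the unscaled value. The difference of *Abcg2* was 0.57 (SE 0.44) on this scale and that of *Abcb1b* was 0.60 (SE 0.66), and neither passed the test (limma, adjusted p = 0.91 for both). This scaling raised the median of all tested genes to 0.30, and against that median *Abcc4* was at -0.61, as it was without the scaling. The part of cell composition in the transporter values was not tested.

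Patterns over the 5 mice were compared with those of 132 genes (the other transporters, other ABC genes, regulators and cell type markers) by the root mean square distance of the centred log2 levels, as a description of these libraries. The gene nearest to *Abcc4* was *Cdh5*, which encodes the cadherin of endothelial junctions (distance 0.059), followed by the smooth muscle gene *Acta2* (0.087). *Cdh5* was at 32.3, 44.5 and 30.9 FPKM in WT mice and at 25.0 and 21.9 FPKM in *Ins2*-AKITA mice. The ratio of *Abcc4* to *Cdh5* was between 0.412 and 0.465 in the 5 mice. *Cdh5* was picked from the 132 genes by these same values, so a steady ratio follows from that choice and is not a separate result. The log2 difference of *Cdh5* was -0.58, against a median of -0.35 for the 12 endothelial markers. Of these markers 10 were lower and 2 higher in *Ins2*-AKITA mice (*Kdr*, 0.04, and *Slco1c1*, 0.05). Whether *Abcc4* follows the endothelial content of the fragments was not tested. *Abcb1a* was nearest to *Slc9a3r2*, a scaffold protein gene (0.083), and then to *Cdh5* (0.11). The ratio of *Abcb1a* to *Abcc4* was 3.26, 3.48 and 3.31 in WT mice, against 4.27 and 3.71 in *Ins2*-AKITA replicates 1 and 2. It was higher in both *Ins2*-AKITA mice than in any WT mouse, but this ratio was not tested. Of all tested genes, taken singly, 9.24% separate the mice in that direction, and no such share was computed for ratios of genes.

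The other transporters were nearest to genes of several cell types. *Abcg2* was nearest to the neuronal vesicular glutamate transporter *Slc17a7* (0.12) and the lipid carrier *Apoe* (0.15). *Abca1* was nearest to the collagen gene *Col1a1* (0.085) and the neuronal marker *Rbfox3* (0.092), *Abcg1* to *Gad1* (0.14) and *Col1a2* (0.17), and *Abcc1* to *Lrp1* (0.13) and the endothelial transcription factor *Erg* (0.13). *Abcc5*, with its 2 high mice, was nearest to *Abcg1* (0.26) and *Abca2* (0.30), and *Abca2* was nearest to *Abcc1* (0.16) and *Abcb6* (0.17). *Abcb1b* lay 0.24 from *Dcn* and 0.26 from *Srebf1*, and *Abcc6* lay 0.38 from *Folr1* and 0.40 from *Emcn*.

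The rest of the ABC family held 43 genes, of which 28 were tested and 7 were at 0 in all mice. None passed an adjusted p of 0.05 in limma. At an unadjusted p of 0.05, 1 was lower and 1 higher in *Ins2*-AKITA mice (backgrounds 2.93% and 1.53%), 14 had a lower and 14 a higher mean log2 level, and the median difference was -0.04. Both belong to the F subfamily, whose members have no transmembrane domain and are not transporters. *Abcf1* was at 69.3, 62.7 and 66.0 FPKM in WT mice and at 53.3 and 30.6 FPKM in *Ins2*-AKITA mice (log2 difference -0.69, SE 0.26; limma, unadjusted p = 0.037 and adjusted p = 0.90, exact permutation p = 0.1). *Abcf3* was at 20.6, 22.6 and 20.4 FPKM in WT mice and at 31.5 and 30.1 FPKM in *Ins2*-AKITA mice (log2 difference 0.52, SE 0.19; limma, unadjusted p = 0.030 and adjusted p = 0.90, exact permutation p = 0.1).

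The most abundant genes of this list also held *Abcf2* (log2 difference 0.03) and *Abcd3*, a peroxisomal fatty acid transporter (0.55), and neither passed the test (limma, adjusted p = 0.99 and 0.90). Both *Ins2*-AKITA mice were above all WT mice in 3 of the 28 genes, *Abcd3* and *Abcf3* among them, and below them in 3 (*Abcf1*, *Abcc3* and *Abcg4*, the last pair named after their values were seen), against backgrounds of 9.24% and 10.3%.

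The regulators and partners of efflux were 28 genes, namely nuclear receptors that control transporter genes, lipid carriers and their receptors, and proteins that anchor transporters at the membrane. Of these, 25 were tested, and the xenobiotic receptor genes *Nr1i2* and *Nr1i3* were among the 3 that were too low, with *Nr1i2* at 0 in 4 of 5 mice. None passed an adjusted p of 0.05 in limma and 0 had an unadjusted p under 0.05 (background 4.46%). The median difference was -0.14, against -0.03 over all tested genes, with 16 genes lower and 9 higher in *Ins2*-AKITA mice, where 53.5% of all tested genes were lower. The 5 most abundant were the lipid carrier *Apoe* (log2 difference 0.06), the lipoprotein receptor *Lrp1* (-0.18), the anchoring protein *Ezr* (-0.31), the lipid synthesis regulator *Srebf1* (0.07) and the scaffold protein *Slc9a3r1* (0.37).

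Both *Ins2*-AKITA mice were below all WT mice in 3 of these 25 genes (*Nr1h2*, *Msn* and *Slc9a3r2*, named after their values were seen), against 10.3% of all tested genes, and above them in 1 (*Slc9a3r1*), against 9.24%. *Nr1h2*, which encodes the liver X receptor beta that activates *Abca1* and *Abcg1*, was at 87.5, 69.6 and 52.5 FPKM in WT mice and at 49.3 and 40.1 FPKM in *Ins2*-AKITA mice. Its log2 difference was -0.61 (SE 0.26, 95% interval -1.24 to 0.02; limma, adjusted p = 0.90), beside differences of -0.08 and -0.07 for *Abca1* and *Abcg1*. The other liver X receptor gene of the list, *Nr1h3*, had a difference of -0.42 (SE 0.50), and its groups overlapped. A link between the receptor and transporter values was not tested. *Msn* encodes moesin, which links membrane proteins to actin, and was at 45.3, 45.2 and 41.8 FPKM in WT mice and at 34.0 and 33.7 FPKM in *Ins2*-AKITA mice (log2 difference -0.37, SE 0.17, limma adjusted p = 0.90).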

How the data were processed

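Libraries were made from the brain vessel fragments of each of the 5 mice (3 WT, 2 *Ins2*-AKITA), with no batch given. The authors depleted ribosomal RNA, made stranded libraries, mapped reads to NCBIM37 with TopHat2 2.0.4, removed duplicates with Picard 1.92, which can lower high values of short genes, and used Cufflinks 2.2.1. The authors deposited FPKM for each gene in each mouse. The program behind these values, the use of strand in counting and the Ensembl release are not given in the sources used here.

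Identifiers (37197 of 37982) were matched to GENCODE vM1 on NCBIM37, the source of the printed sequences, and rows of a symbol were summed. The 16286 symbols whose FPKM averaged 1 or more were tested with limma 3.58.1 (R 4.3.3, eBayes with trend, two-sided) on log2(FPKM + 1), which understates changes of low genes, with genotype as the only factor and Benjamini-Hochberg adjustment at 0.05. Exact permutation tests ran over the 10 splits of the mice. The fit was also run on simulated data, but the outcome is not given here and bears on none of these results. Other steps used Python 3.11.15.

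Fragments per mouse were estimated from low FPKM values of genes with 1 transcript, 97.7% to 98.0% of which came out whole within 0.05 fragments. Where a gene has several transcripts, fragments on the longest are an upper limit. All transporters were named, and of the other ABC genes and the regulators those with an unadjusted p under 0.05 and the 5 with the highest mean. A gene that this rule names is not reported here. The transporters and lists were chosen with earlier results of these data known. Alternatives were other pseudocounts, filters and scalings, a constant prior variance, the highest row per symbol, the replicate block and each mouse left out.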

Additional observations from a re-analysis of the deposited data

How the results depend on the processing

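No transporter passed an adjusted p of 0.05 under any alternative run, and no other ABC gene or regulator did under those run for these lists, which leave out endothelial centring. For *Abcc4* the adjusted p ran from 0.40 to 1.00 and for *Abcb1a* from 0.33 to 1.00, and the unadjusted p of *Abcc4* was above 0.05 with TPM, with endothelial centring, with the replicate block and without each mouse other than WT replicate 3. Of the 109 single-gene values under settings that keep all mice, 96 kept their direction and 13 did not. TPM, in which small and ribosomal RNA weigh in, moved the median of all tested genes to 1.07, and gave *Abcb1a* 1.15, *Abcc1* 0.75, *Abcc4* 0.73, *Abcc5* 1.54, *Abcc6* 0.18, *Abca1* 1.25, *Abca2* 1.51 and *Abcg1* 1.20, with 1.17 as the median of the transporters. Endothelial centring moved the median of all tested genes to 0.30, and gave *Abcc1* 0.10, *Abcc5* 0.29, *Abca1* 0.25, *Abca2* 0.26 and *Abcg1* 0.26, with 0.25 as the median of the transporters. The count of all genes past the threshold, 4, became 2 with no filter, 2 with a filter at a mean FPKM of 5, and 88 with TPM.

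Leaving out each mouse in turn gave 2 (without WT replicate 2) to 11 (without *Ins2*-AKITA replicate 2) genes past the threshold and a transporter median of -0.46 to 0.062. The ranges were -0.65 to -0.22 for *Abcb1a*, -0.75 to -0.53 for *Abcc4*, -0.33 to 0.87 for *Abcb1b*, -0.015 to 0.49 for *Abcg2*, -0.57 to 0.11 for *Abcc1*, -0.67 to 0.58 for *Abcc5*, -1.18 to 0.024 for *Abcc6*, -0.22 to 0.060 for *Abca1*, -0.35 to 0.21 for *Abca2*, -0.31 to 0.17 for *Abcg1* and -4.42 to -0.11 percentage points for the *Abcb1a* share. With 1 *Ins2*-AKITA mouse left, it is assumed to vary like the WT mice. The 2 mice of that genotype and, for *Abcb1b* and *Abcc6*, the few fragments limit the precision.

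Mice of both genotypes carry replicate numbers, but with 2 *Ins2*-AKITA mice their deviations mirror each other (correlations of 0.051 and -0.034 for the same-numbered mice), and the numbers were not taken as pairs. With the replicate block the transporter median was -0.27, *Abcc4* was at -0.71, *Abcb1a* at -0.51, the share at -2.26 percentage points and 5 genes passed the threshold. WT replicate 3 has no partner there. An alternative chosen after seeing the data, *Abcb1a* and *Abcb1b* summed, gave a log2 difference of -0.40 (exact permutation p = 0.2). The causes of these shifts were not tested.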
